A study of Mus musculus with 2 samples.

Results

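Calmegin (Clgn), a chaperone of the endoplasmic reticulum (ER) that male germ cells make in meiosis, was compared with 8 general ER folding genes in testes with and without UBR2. The members were chosen by name: the calnexin-type lectins Clgn, Canx and Calr, the disulfide isomerases Pdia3, Pdia4, Pdia6 and P4hb, the HSP90 of the ER Hsp90b1 and the prolyl isomerase Ppib. All 9 were found, read by 18 of the 20380 probe sets that name 1 gene, out of 12393 genes on the array. Messenger RNA came from testes of mice aged 17 days on a mixed background (129SV and C57BL). The mice were either wild type or UBR2-/-, the latter without UBR2, which attaches ubiquitin to proteins in the N-end rule pathway. Each genotype had 1 oligonucleotide array (n = 1) for which 2 testes from different littermates are named, with pooling of their RNA not stated. The whole testis was used, so germ cells and somatic cells are read together.

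With 1 array per genotype no test across animals was possible. Each value below describes these arrays and has no replicate check. A ratio is the signal on the UBR2-/- array over that on the wild type array, signals below a floor (24.4 for wild type, 24.7 for UBR2-/-) are raised to it, and a gene is represented by its brightest probe set. The 8091 genes whose mean signal reached the mean floor were compared, all 9 members among them. As a measure of reading error, the SD of 1 bright probe set's log2 ratio was 0.13, taken from genes read by more than 1 probe set. That SD leaves out differences between arrays and between animals. Paired signals are given with wild type first. Ubr2 itself had signals of 57.2 and 14.3, a drop of at least 2.32-fold, and the median signals of all probe sets other than controls were 48.7 and 48.75.

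Proteins that enter the ER receive a sugar chain, and calnexin and calreticulin hold such glycoproteins by that chain until they are folded. Calnexin sits in the ER membrane and calreticulin is its soluble relative, and both bring the isomerase PDIA3 (ERp57) to the client so that its disulfide bonds can form. Calmegin is the membrane-bound relative of calnexin found in spermatocytes and spermatids. Mouse sperm without it lack several ADAM proteins on their surface, bind the egg coat poorly and fertilize poorly. The general chaperones are made in nearly every cell, and many are switched on together when unfolded proteins build up in the ER, through an element in their promoters.

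This ER stress response element reads CCAAT, then 9 bases of any kind, then CCACG, and the transcription factor ATF6 acts through it together with NF-Y. The promoter windows of the members were searched for it on both strands. General ER chaperones are known to be switched on through this element. Finding it among members chosen as ER chaperones is therefore not independent evidence. Each window ran from 250 bases before to 50 bases after the gene's start in RefSeq (build GRCm38.p6). The table held a window for 8 of the 9 members, and for Clgn none. The element was found in 4 of these 8 windows, those of Canx, Calr, Pdia6 and Hsp90b1, against 39 of 32851 windows in the whole table (0.119%). Each site is given in the direction of the gene, with CCAAT and CCACG in capitals, or their reverse complements ATTGG and CGTGG where the element lies on the other strand.
Canx (chr11:50325788-50325830, minus strand): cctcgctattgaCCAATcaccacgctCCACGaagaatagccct
Calr (chr8:84847063-84847105, minus strand): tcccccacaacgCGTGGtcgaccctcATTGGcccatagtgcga
Pdia6 (chr12:17266479-17266521, plus strand): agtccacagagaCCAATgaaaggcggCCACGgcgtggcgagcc
Hsp90b1, distal (chr10:86705626-86705668, minus strand): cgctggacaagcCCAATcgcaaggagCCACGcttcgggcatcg
Hsp90b1, proximal (chr10:86705521-86705563, minus strand): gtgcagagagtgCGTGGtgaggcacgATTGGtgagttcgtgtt
Hspa5 (chr2:34772013-34772055, plus strand): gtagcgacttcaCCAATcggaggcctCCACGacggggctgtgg

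Hspa5, which encodes the general ER chaperone BiP, is shown because it is a classic target of this response, although it is not a member. Hsp90b1 held 2 elements, which began 212 and 107 bases before the start, and the others held 1 each: 145 bases before the start in Canx, 162 in Calr, 98 in Pdia6 and 65 in Hspa5. The 5 letters CCACG alone, which every such element contains, were present in 7 of the 8 member windows and in 32.8% of all windows. The letters TGACGTG, the core of another stress element, were in 0 of the 8 and in 2.01% of all windows, and the cyclic AMP response element TGACGTCA was in 0 of the 8 and in 1.79%. These matches describe letters in a window and do not show that a factor binds there.

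Calmegin was the member that stood apart. Its brightest probe set (1418617_x_at) had a signal of 565 in wild type and 208.9 in UBR2-/- testes, 2.70-fold lower (log2 ratio -1.44). The other probe set (1430240_a_at) had 512.8 and 122.8, a log2 ratio of -2.06, or 4.18-fold lower. Both probe sets thus read less calmegin RNA on the UBR2-/- array, and they differed from each other in how much less. The gap between their log2 ratios was 0.63, and 4.32% of 2893 genes with several readable probe sets had a gap at least as wide. It was 3.35 times the SD of a difference between a pair of bright probe sets (0.19). That SD, used below, thus understates the spread of the readings of Clgn. Endings in _x_at and _a_at mark probe sets with probes that can match other sequences or several transcripts of a gene. In whole testis, fewer cells of a type and less RNA per cell cannot be told apart.

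**Figure D1:**
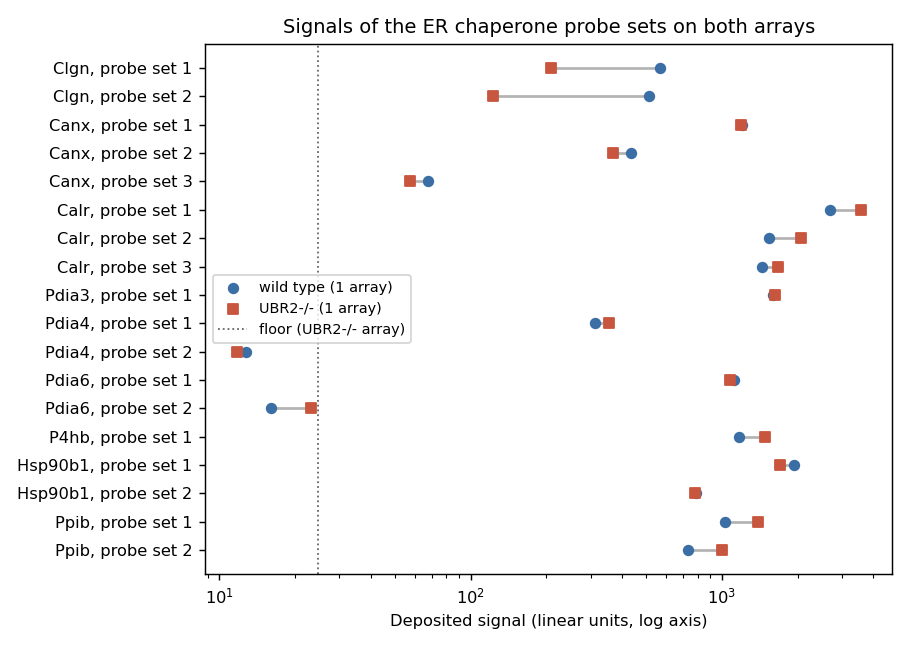
Deposited signal (log axis, linear units) of each of the 18 probe sets of the ER chaperone genes on the wild type array (circle) and the UBR2-/- array (square), 1 array each, with the floor of the UBR2-/- array as a dotted line. On the log axis the pair of calmegin probe sets has the widest distance between arrays, from 565 to 208.9 and from 512.8 to 122.8. The 2 probe sets that lie below the floor on both arrays are of Pdia4 and Pdia6.

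Of the 9 members, 1 (Clgn) was lower by at least 2-fold in UBR2-/- testes, 0 were higher by 2-fold or more, and 8 lay between. Of all compared genes 3.52% were at least 2-fold lower and 0.346% at least 2-fold higher. At a threshold of 1.5-fold the members' counts were again 1 lower and 0 higher, beside 7.71% lower and 4.25% higher among all compared genes. A log2 ratio below that of Clgn was found for 146 of the 8091 compared genes (1.80%). A further 127 genes were at the floor on the UBR2-/- array with a bound above the ratio of Clgn, and they cannot be ranked against it. The member median was 0.03 and the median of all compared genes was 0.07, with quartiles of -0.17 and 0.28.

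The closest relative of calmegin, calnexin, had almost equal signals by its brightest probe set. Canx had 1201 in wild type and 1191.5 in UBR2-/- testes (1415692_s_at, log2 ratio -0.01). Its other probe sets had 435.4 and 368.4 (log2 ratio -0.24), and 67.3 and 57.4 (-0.23). All 3 lay within a narrow range just below 0, and none came near the 2-fold line. The log2 ratio of Clgn was 1.42 below that of Canx (difference -1.42), where the SD of a difference between a pair of bright probe sets was 0.19. Over the 6 pairings of a Clgn with a Canx probe set the difference ran from -2.05 to -1.19.

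Calreticulin, the soluble lectin, lay on the other side of 0. Calr had signals of 2701.2 in wild type and 3582.3 in UBR2-/- testes (1417606_a_at), 1.33-fold higher (log2 ratio 0.41). Its other probe sets had 1532.5 and 2072.4 (0.44), and 1440.6 and 1672.6 (0.22). Each of the 3 was brighter on the UBR2-/- array. The difference between Clgn and Calr was -1.84, with a range of -2.50 to -1.65 over 6 pairings. Within this family of lectins the germ cell gene was therefore lower, the membrane-bound general gene about level and the soluble general gene somewhat higher, and Calr and Canx differed by 0.42. The size of the value of Calr depended on the normalization: it was 0.22 with quantile normalization and 0.19 with loess, where Canx had -0.03 and -0.11.

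**Figure D2:**
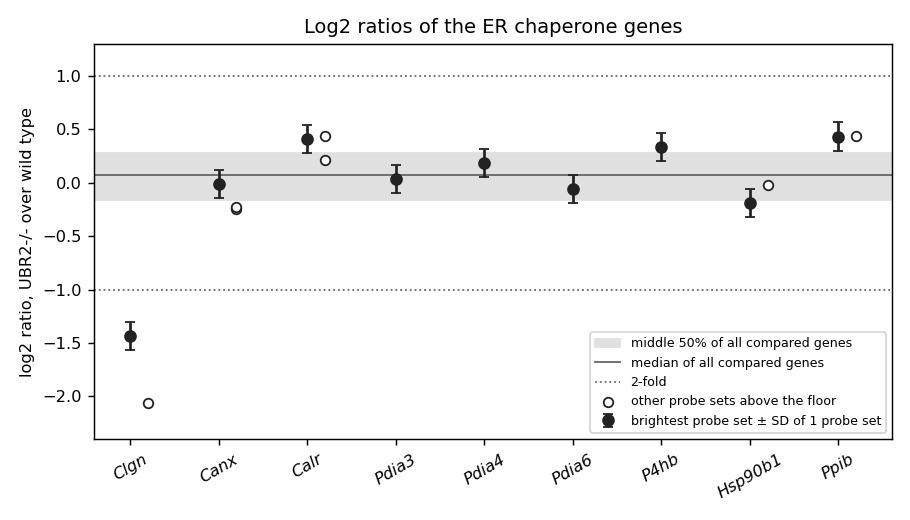
Log2 ratio of UBR2-/- over wild type for each ER chaperone gene, from 1 array per genotype. Filled points are the brightest probe set with the SD of 1 probe set (0.13), open points are the other probe sets above the floor, the band is the middle 50% of all compared genes, and dotted lines mark 2-fold. Both calmegin points, at -1.44 and -2.06, lie below the lower dotted line, and the general members lie between -0.24 and 0.44 over all their probe sets.

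Of the disulfide isomerases 3 lay within the quartiles of all genes, and P4hb lay above them. Pdia3, the partner of calnexin and calreticulin, had 1594.8 in wild type and 1630.9 in UBR2-/- testes (1423423_at, log2 ratio 0.03). Pdia4 (ERp72), an isomerase with several thioredoxin-like domains, had 312.4 and 355.3 (1416497_at, 0.19). Pdia6 (P5), which works with BiP, had 1119.1 and 1077 (1423648_at, -0.06). These genes differed between the arrays by no more than 1.14-fold. P4hb, the founding protein disulfide isomerase and also a subunit of the collagen prolyl 4-hydroxylase, had 1172.5 and 1481.2 (1437465_a_at), 1.26-fold higher on the UBR2-/- array (0.34). The isomerases spanned -0.06 to 0.34 with a median of 0.11 over 4 genes, and Clgn lay 1.38 or more below each of them. The second probe sets of Pdia4 (12.8 and 11.7) and Pdia6 (16 and 23.2) were below the floor on both arrays and give no ratio.

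Hsp90b1 (GRP94), which folds integrins and Toll-like receptors, was the general member farthest below 0 by the brightest probe sets. Its signals were 1931.6 in wild type and 1695 in UBR2-/- testes (1415889_a_at, log2 ratio -0.19), and 789.8 and 778 by the other probe set (-0.02). Ppib (cyclophilin B), which speeds the folding of proline bonds and belongs to a complex that modifies collagen, was the farthest above 0. It had 1030.8 and 1391.6 (1450911_at, 1.35-fold higher, 0.43), and its other probe set had 734.4 and 998 (0.44). The probe sets of Ppib lay close together, and those of Hsp90b1 differed by less than the SD of a difference. With the mean over probe sets Canx (-0.16) lay farther below 0 than Hsp90b1 (-0.11). Clgn was below Hsp90b1 by 1.25 and below Ppib by 1.87 on the log2 scale.

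In the order of their log2 ratios the members ran Clgn, Hsp90b1, Pdia6, Canx, Pdia3, Pdia4, P4hb, Calr and Ppib. The step from Clgn to Hsp90b1 was 1.25, beyond the SD of a difference (0.19), and each of the other 7 steps between neighbours was smaller than that SD. Of the 8 general members, 4 had ratios above the all-gene median and 4 had ratios below it. Of these, 4 were within the quartiles of all genes, 3 above the upper quartile (Calr, P4hb and Ppib) and 1 below the lower (Hsp90b1). The plot of ratios against signal shows where each member lies among the compared genes.

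**Figure D3:**
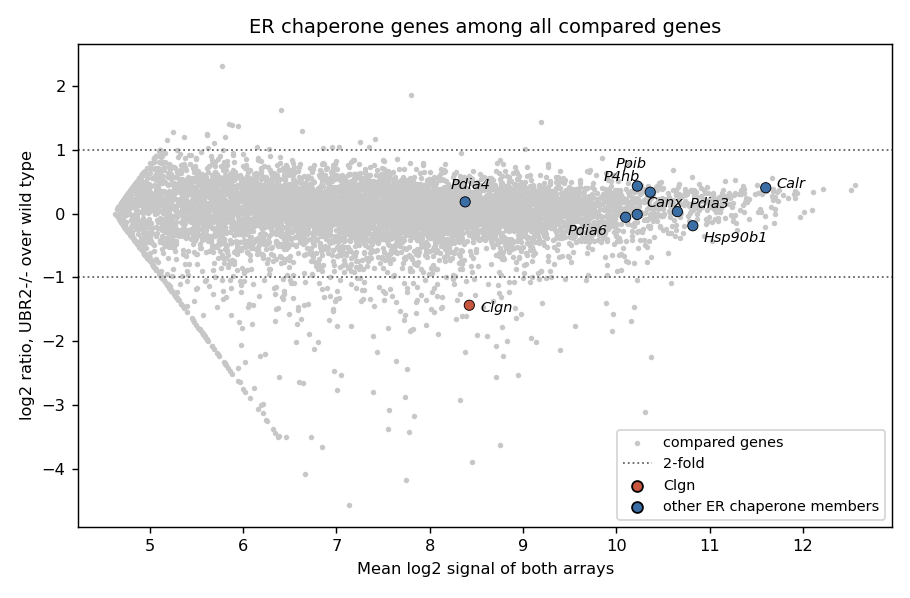
Log2 ratio of UBR2-/- over wild type against the mean log2 signal of both arrays for the 8091 compared genes (grey), with Clgn in red and the 8 general members in blue. Dotted lines mark 2-fold, the slanted edges at the left come from the floor, and Clgn at -1.44 is the member outside the dotted lines.

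The bacterial and phage control transcripts were brighter on the UBR2-/- array, and scaling to them instead of keeping the deposited scale moved the median of all genes by -0.35, to -0.28. With that scaling Clgn was at -1.79, the general members ran from -0.54 to 0.08, and 2 of the 8 were above 0 (Calr and Ppib) in place of 5. Pdia3, Pdia4 and P4hb turned below 0. Measured from the median of all genes, 4 of the general members lay above and 4 below under each of the 4 alternative scalings, as on the deposited scale. The difference between Clgn and Canx does not depend on a factor common to an array.

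**Figure D4:**
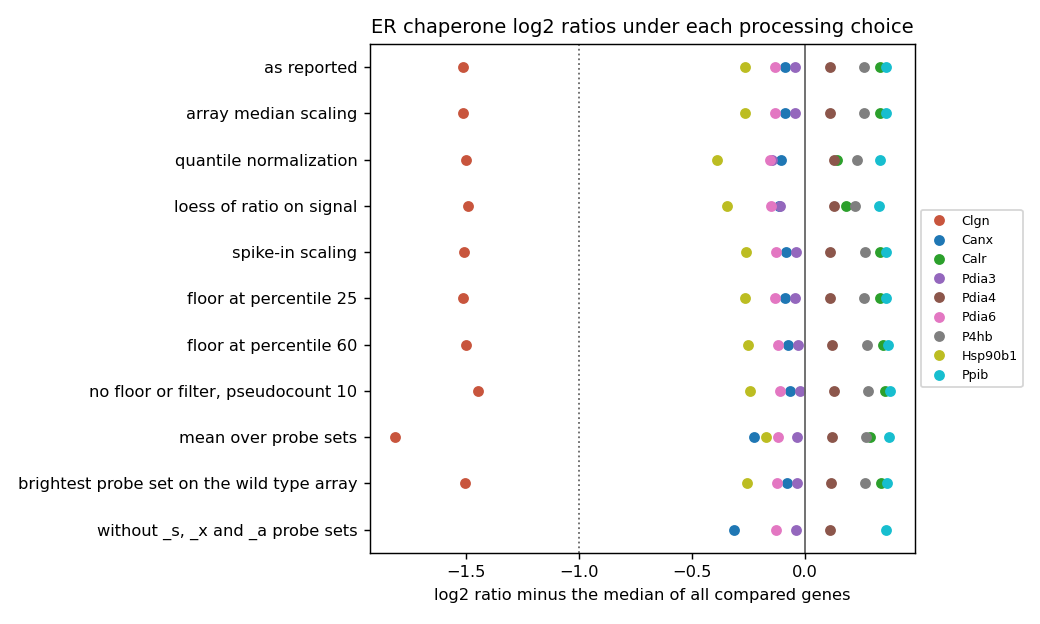
Log2 ratio minus the median of all compared genes for each member under the processing as reported and the 10 alternatives. The solid line marks the median of all genes and the dotted line 2-fold below it; Clgn lies beyond the dotted line wherever it could be measured, and it has no value without _s, _x and _a probe sets.

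The enzymes of the glycoprotein folding cycle were set beside calmegin. Of their 6 compared genes 0 were beyond 2-fold in either direction, and the median was 0.14. Among all compared genes 3.52% were at least 2-fold lower and 0.346% at least 2-fold higher. A count of 0 in a list this short is near those shares, here and in the ER lists that follow. Uggt1, which puts a glucose back on unfolded glycoproteins so that the lectins bind them again, had 45.2 and 45.9 (0.02). Its paralog Uggt2 lay farther from 0 than the rest, with 199.9 in wild type and 105.8 in UBR2-/- testes, 1.89-fold lower (-0.92) by 1 probe set. Ganab, the catalytic subunit of the glucosidase that frees clients from the lectins, had 0.35, and Man1b1, a mannosidase that marks glycoproteins for removal, had -0.36. The germ cell relatives Calr3 and Pdilt were not analysed here.

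Of 19 other genes of disulfide exchange and ER oxidation, 1 was at least 2-fold lower, 0 were 2-fold higher and 18 lay between, with a median of 0.09. Among all compared genes the shares were 3.52% lower and 0.346% higher. The lower gene of this list was Ero1b, an oxidase that recharges the isomerases. It had 577.6 in wild type and 268.2 in UBR2-/- testes (2.15-fold lower, -1.11), and 170.5 and 89.1 by another probe set (-0.94). The remaining Ero1b probe set was below the floor on both. Its paralog Ero1a had 246.4 and 294.4 (0.26), with its other probe sets at 0.20 and 0.30, and the pair differed by 1.36. The pairs Uggt1 and Uggt2, and Ero1a and Ero1b, were set side by side after their values were seen, and so were the pairs that follow. Derl1 and Derl2 of ER-associated degradation had 0.33 and -0.44. The translocon genes Sec61a1 and Sec61a2 had 0.10 and 0.03, and the oligosaccharyltransferase genes Stt3a and Stt3b had 0.02 and -0.19. Edem1 and Edem2, lectins of ER-associated degradation, had 0.30 and 0.09. The difference was within its SD for the Sec61a and Edem pairs. It was beyond its SD for Stt3a and Stt3b (-0.21, SD 0.19) and for Derl1 and Derl2 (-0.77, SD 0.19). The other Derl2 probe set had -0.20, and those of Derl1 had 0.22 to 0.62. Other probe sets reached 0.53 for Sec61a1 and 0.69 for Stt3a, both by dim ones, and -0.31 for Stt3b. Elsewhere in this list the isomerase Pdia5 and the retention factor Erp44 had 0.07 and 0.20, and the peroxidase Prdx4 and the vitamin K enzyme Vkorc1 had 0.48 and 0.46.

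The BiP system had 13 compared genes, 0 of them beyond 2-fold, and a median of 0.08. The shares of all compared genes were 3.52% lower and 0.346% higher. BiP itself (Hspa5) had 3933.7 in wild type and 4966.7 in UBR2-/- testes (0.34), and 0.19 by its other probe set, while Hyou1, its nucleotide exchange factor, had 0.08. Sdf2l1, a partner of BiP that ER stress induces, had 272.7 and 166.5, 1.64-fold lower (-0.71), and its relative Sdf2 had 0.34. Cnpy2, of the canopy family of ER proteins, had 0.34. In the unfolded protein response list 0 of 12 compared genes differed by 2-fold or more, the median was 0.22, and the sensor Ern1 was too dim to compare. The sensor Atf6 and its relative Atf6b had 0.23 and -0.09. Xbp1, a transcription factor of the response, had 0.46, the amino acid enzyme Asns 0.36, and Herpud1, a stress-induced factor of ER-associated degradation, -0.41. With the floor at the 25th percentile 1 gene of this list was 2-fold lower.

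ER-associated degradation had 19 compared genes, with 0 beyond 2-fold (3.52% lower and 0.346% higher among all compared genes) and a median of 0.07. The adaptor Sel1l and the ligase Syvn1, which form the core of this pathway, had 0.08 and -0.20. Bcap31, an ER membrane export factor, was 1.60-fold higher (0.67, and 0.92 by its other probe set), and the ubiquitin-conjugating enzyme gene Ube2j1 was 1.52-fold lower (-0.60) by its brightest and had -0.15 by its other probe set. The machinery that brings proteins into the ER, trims their signal peptides and adds sugars had a median of 0.05, beside 0.07 for all genes. Of its 21 genes 0 were beyond 2-fold, near the shares of all genes. Its members farthest from 0 were Ssr4, Sec11a and Sec61b, at 0.46, 0.39 and 0.30. Of the lists of ER folding and degradation, those with a gene lower by 2-fold or more on the deposited scale were the members (Clgn) and the oxidation genes (Ero1b). As 3.52% of all compared genes were that low, 1 gene does not set the oxidation list apart. With control transcript scaling the glycoprotein cycle and the BiP system also had 1 each.

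The prolyl isomerases and collagen chaperones lay mostly above the median of all genes, as Ppib did. Of 12 compared genes 11 were above the median of all genes, P3h1 lay on it at 0.07, and the list's median was 0.42. Of these 12, 0 were beyond 2-fold, beside 3.52% lower and 0.346% higher among all compared genes. The ER cyclophilin Ppic had 157.7 in wild type and 213.6 in UBR2-/- testes (0.44), and the FK506-binding isomerase Fkbp2 had 242.2 and 345.1 (0.51). Serpinh1, the collagen chaperone HSP47, had 186.6 and 267.9 (0.52), the collagen lysyl hydroxylase Plod3 had 0.53, and P4ha2, which pairs with P4hb in prolyl hydroxylase, had 30.1 and 49.2 (0.71), close to the floor. With the control transcripts as the scale the median of the list was 0.07, again above that of all genes (-0.28). Markers of some somatic cells lay on the same side, and those of macrophages did not. The 8 peritubular myoid markers had a median of 0.51 and summed signals of 2610.7 in wild type and 3750.9 in UBR2-/- testes, with 8 of 8 above the median of all genes. For the 6 fibroblast and matrix markers, 5 of them above that median, the list's median was 0.30 and the sums were 5552.1 and 7041.2. For the 12 Sertoli markers, 9 of them above it, the median was 0.34 and the sums were 15655.3 and 19837.8. The Sertoli marker farthest from 0 went the other way: Amh, the anti-Müllerian hormone, had 59.7 and 25.5, 2.34-fold lower (-1.23). Its UBR2-/- signal was close to the floor. The Leydig cell markers had a median of 0.29 over 5 genes, among them Cyp11a1, the first enzyme of steroid synthesis, at -0.59. The macrophage markers had a median of -0.12, with 7 of 8 below the median of all genes and sums of 862.6 and 803.2. Spermatogonia markers had 0.20 over 8, of which 1, Id4, was 2.10-fold lower (-1.07), beside 3.52% at least 2-fold lower among all compared genes. None of these markers was listed at 0. Their part in the values of Ppib, P4hb and Calr was not tested.

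The proteins that calmegin helps to mature were examined next, together with other sperm surface proteins. Of 9 compared genes 5 were at least 2-fold lower, 0 were 2-fold higher and 4 lay between, beside 3.52% lower and 0.346% higher among all compared genes. The median was -1.003, set by Adam1b, which was below the floor on the UBR2-/- array. Adam1b and Adam2 encode chains of fertilin, whose joining needs calmegin. Adam1b had 49.5 in wild type and 10.9 in UBR2-/- testes, at least 2.004-fold lower, and Adam2 had 883.9 and 116.3, 7.60-fold lower (-2.93). Adam3, which is missing from sperm without calmegin, had 267 and 13.7, at least 10.8-fold lower. The related Adam5 had 681.8 and 28.8, 23.7-fold lower, with its UBR2-/- signal close to the floor. Adam4 was not lower, at 25.8 and 27.6 (0.10), both close to the floor. Zpbp of the acrosome had 215.4 and 67.9, 3.17-fold lower. In the same list, Tex101, a germ cell surface protein that acts in the maturation of ADAM3, was level at 2621.8 and 2670.1 (0.03), and Ace, whose testis form is needed for fertility, was dim and read both ways. Its probe sets had 48.8 and 61.1 (0.32), and 37.9 and 28.9 (-0.39). The Ace probe sets were not assigned to its somatic or testis form.

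Calmegin was then set beside germ cell markers, since it is a gene of meiotic cells. Of 13 compared markers of pachytene and later spermatocytes, 10 were at least 2-fold lower, and the median was -2.57. Among all compared genes 3.52% were at least 2-fold lower. The summed signal of the 14 markers read was 9778.7 in wild type and 2076.6 in UBR2-/- testes, and 0 of them was listed at 0. Adam2 and Adam3 are among these markers and also in the sperm surface list, so these lists are not separate sets of genes. Of the 13, 8 had a log2 ratio below that of Clgn, among them Ldhc, the germ cell lactate dehydrogenase, at -3.11, and 4 had one above it, among them the chaperone gene Hspa2 at -0.90. The last, the cyclin gene Ccna1, had 52 and 9.3 and was below the floor on the UBR2-/- array, so its drop of at least 2.11-fold cannot be ranked against Clgn. Markers of early meiotic prophase had a median of -0.08 over 11 genes, 10 of them below the median of all genes. Of the 11, 11 lay above Clgn, as most compared genes did, with 1.80% of all compared genes below it. Sycp3 of the synaptonemal complex had 0.02, and Spo11, which makes meiotic DNA breaks, was the early gene nearest to Clgn at -1.27. Of 9 spermatid markers 8 were too dim to compare. The remaining one, the protamine gene Prm1, was dim and went the other way, with 35.3 in wild type and 94 in UBR2-/- testes (2.66-fold higher, 1.41) and its other probe sets at 1.55 and 0.35. Calmegin thus lay between the medians of both meiotic lists. The part of the late spermatocyte markers in the value of Clgn was not tested.

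**Figure D5:**
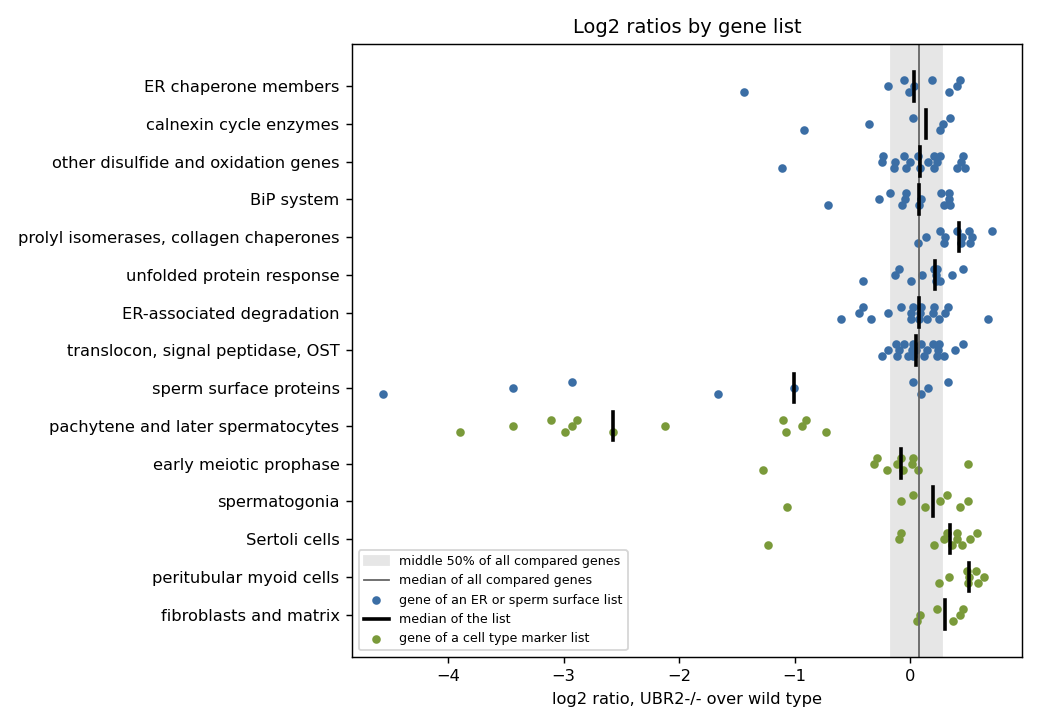
Log2 ratio of UBR2-/- over wild type of each compared gene (points) by gene list, with the list's median as a black bar, the median of all genes as a grey line and the middle 50% of all genes as a grey band. The ER lists center near 0, the collagen chaperones at 0.42, and the lists of sperm surface proteins and late spermatocyte markers at -1.003 and -2.57. Adam2 and Adam3 are in both of these last lists.

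Genes with a log2 ratio near that of Clgn were sought among those bright on the wild type array and above the floor on both. All probe sets of a gene had to lie on the same side of 0. The nearest were Ccdc96 (-1.43), Cep290 (-1.44), Cfap97 (-1.42), Ankrd36 (-1.46) and Gstm5 (-1.46). Cfap97 was read by 2 probe sets and each of the others by 1. Likeness here rests on 1 ratio over 2 arrays. The glutathione transferase gene Gstm5 had signals of 1942.2 and 706.3, and the cilium gene Cep290 had 278.9 and 102.5.

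The members with an ER stress response element were then compared with those without. Canx, Calr, Pdia6 and Hsp90b1, whose sites are printed above, had log2 ratios of -0.01, 0.41, -0.06 and -0.19, and Pdia3, Pdia4, P4hb and Ppib, in whose windows these letters were not found, had 0.03, 0.19, 0.34 and 0.43. The ranges of these groups overlap. Across the array 15 compared genes had the element in a window, with a median of -0.01, 1 at least 2-fold lower (Ero1b) and 0 higher. The 6639 compared genes with windows and without the element had a median of 0.07, with 3.46% at least 2-fold lower and 0.362% at least 2-fold higher.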

How the data were processed

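The authors deposited linear intensities of 22690 probe sets from 2 Affymetrix mouse genome 430A 2.0 arrays. Per the submitters' processing notes they come from MAS5, whose settings and detection calls are not given, nor is a genome build. The authors' scaling was kept (trimmed means of 150.04 on both arrays). No label says that samples are replicates, and with 1 array per genotype the spread between animals is unknown. Of the probe sets, 20380 carried 1 symbol in GEO's (older) annotation, and 20351 of these matched the RefSeq table (GRCm38.p6) by Entrez identifier, used for names.

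Signals were floored at each array's 40th percentile. Log2 ratios of the floored signals were taken with the brightest probe set of each gene, and genes were compared where the mean signal reached the mean floor. The SD of 1 probe set was 1.48 times the median absolute difference between the brightest pair of probe sets of a gene, divided by the square root of 2, in 3 classes of brightness (0.24, 0.19 and 0.13). The calculation was tested on simulated data. Members, lists and tests were chosen with earlier results of these data known, so no list is independent evidence. Named are all members, from each other list the first 2 compared genes, those beyond 2-fold and the 3 farthest from 0, and the 5 genes nearest to Clgn. Genes named otherwise, such as markers and paralogs that are not members, were chosen after their values were seen. Alternatives were array median, quantile, loess (span 0.3) and control transcript scaling, floors at percentiles 25 and 60, a pseudocount of 10 without floor or filter, other probe set rules, and thresholds of 1.5-fold and 3-fold. Python 3.11.15, pandas 2.3.3, statsmodels 0.14.6 and matplotlib 3.10.9 were used.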

Additional observations from a re-analysis of the deposited data

How the results depend on the processing

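Calmegin kept its direction under each of the 9 alternatives that could give it a value. Its log2 ratio of -1.44 was -1.79 with control transcript scaling and -1.75 with the mean over probe sets, and otherwise moved by less than the SD of 1 probe set. The difference between Clgn and Calr (-1.84) was -1.64 with quantile normalization and -2.10 with the mean over probe sets, and that between Clgn and Canx moved by less than its SD. The count of members at least 2-fold lower (1) was 0 at a threshold of 3-fold, and 0 without _s, _x and _a probe sets, where Clgn, Calr, P4hb and Hsp90b1 have none left. The median of the sperm surface list turned from -1.003 to 0.027 with the pseudocount of 10 and no filter, where genes too dim to compare enter. Of the other values, 13 of 77 member log2 ratios, 6 of 54 Clgn differences, 12 of 90 list medians and 4 of 90 list counts moved beyond their tolerance, 8 of these ratios and 9 of these medians with control transcript scaling. Over all genes 285 were 2-fold lower and 28 higher, against 528 and 7 with control transcript scaling, 402 and 132 with the floor at percentile 25, 152 and 8 at percentile 60, 316 and 17 with loess, and 324 and 56 with the pseudocount. Apart from what these settings build in (another scale, another floor), the cause was not tested. No paired analysis was possible because each genotype has 1 array.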

Other observations

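The ER stress response element was also found in windows of 11 compared genes that are not members, 8 of them not yet described. Dnajc3, a co-chaperone of BiP, had 527.2 in wild type and 437.2 in UBR2-/- testes (log2 ratio -0.27). Its other probe sets went both ways, at -0.05, 0.32, -0.60 and -0.66. Derl3 of ER-associated degradation had -0.08, Creld2, an ER stress gene, had 0.16, and Alg12, a mannosyltransferase that builds the sugar chain, had -0.01. The remaining genes, Pan2, Adcy3, Spats2l and Acacb, had -0.02, 0.43, 0.66 and 0.83. The signals of Acacb were 26 and 46.2, close to the floor. The genes farthest above 0 in this group were thus dim ones outside the ER folding lists, and a match in a window does not show that the element acts in that gene.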
